A study of Mus musculus with 8 samples.

Results

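A set of 10 endothelial genes was followed in whole mouse embryos: the receptor genes Kdr, Flt1, Tek and Tie1, the junction genes Cdh5, Pecam1 and Cldn5, and the transcription factor genes Erg, Etv2 and Sox18. They were chosen by name and role and found on the array by the RefSeq accession of each probe. All 10 of 10 genes were on the array, with 13 of its 55681 probes, and all 10 passed the filter on dim probes, among 23172 features tested, of which 14657 were named genes. The embryos came from CD-1 mice, an outbred stock, and were taken on gestational day 9, 3 h after the dam was injected intraperitoneally. The hydroxyurea group (4 samples) came from dams given 400 mg/kg hydroxyurea, an inhibitor of ribonucleotide reductase. The saline group (4 samples) came from dams given saline. RNA of the whole embryo was hybridised to 1-colour Agilent arrays on 2 slides, each of which held 2 arrays of each group. Hydroxyurea arrays lay in columns 1 and 4 of a slide and saline arrays in columns 2 and 3. Group and column thus cannot be told apart. The labels mention 4 independent experiments but not which samples share one, nor the number of embryos or litters behind an RNA, so p-values measure the spread between these samples.

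Endothelial cells line the blood vessels, and at this stage of the mouse embryo the first vessels are being remodelled. VEGF-A, a secreted growth factor, acts on these cells through the receptor VEGFR2 (Kdr), while VEGFR1 (Flt1) binds it tightly and in the embryo serves largely as a trap. The angiopoietins act through TIE2 (Tek), which pairs with the orphan receptor TIE1. Endothelial identity is set up by the ETS factor ETV2, which is present only for a short time, and then kept by other ETS factors, among them ERG, together with SOX factors such as SOX18. All values below are log2 signals relative to the 75th percentile of the array's probes, so 0 means as bright as that percentile and a difference of 1 means a doubling. In whole embryos, fewer cells of a type and less RNA per cell cannot be told apart.

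ETS factors bind DNA at sites built around the letters GGAA, and a RefSeq table (GRCm38.p6) of stretches from 250 bases before to 50 after each gene's start held 9 entries for 7 of the 10 genes. Those of Kdr, Flt1, Etv2 and the Erg start that held a match are shown because these genes encode VEGF receptors or ETS factors and differed in direction. Capitals mark CCGGAA or AGGAAG in either orientation, so that TTCCGG and CTTCCT are matches on the opposite strand.
Kdr, chr5:75978406-75978705, minus strand: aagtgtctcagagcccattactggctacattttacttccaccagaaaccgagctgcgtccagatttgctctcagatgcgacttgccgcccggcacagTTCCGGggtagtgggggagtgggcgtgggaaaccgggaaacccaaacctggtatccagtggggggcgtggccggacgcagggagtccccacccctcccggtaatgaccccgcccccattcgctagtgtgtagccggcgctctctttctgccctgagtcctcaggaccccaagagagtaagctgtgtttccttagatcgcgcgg
Flt1, chr5:147725962-147726261, minus strand: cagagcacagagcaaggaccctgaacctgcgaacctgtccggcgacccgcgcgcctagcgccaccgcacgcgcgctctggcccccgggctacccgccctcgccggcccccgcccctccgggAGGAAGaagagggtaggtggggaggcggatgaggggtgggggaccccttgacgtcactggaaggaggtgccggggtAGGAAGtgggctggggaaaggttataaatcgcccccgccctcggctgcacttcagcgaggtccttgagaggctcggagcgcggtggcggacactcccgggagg
Etv2, chr7:30635803-30636102, minus strand: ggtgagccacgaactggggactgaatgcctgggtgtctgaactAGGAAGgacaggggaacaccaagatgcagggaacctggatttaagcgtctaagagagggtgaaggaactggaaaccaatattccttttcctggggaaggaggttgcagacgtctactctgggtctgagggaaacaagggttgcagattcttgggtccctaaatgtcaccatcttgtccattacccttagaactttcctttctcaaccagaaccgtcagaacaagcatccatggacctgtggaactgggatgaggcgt
Erg, chr16:95459299-95459598, minus strand: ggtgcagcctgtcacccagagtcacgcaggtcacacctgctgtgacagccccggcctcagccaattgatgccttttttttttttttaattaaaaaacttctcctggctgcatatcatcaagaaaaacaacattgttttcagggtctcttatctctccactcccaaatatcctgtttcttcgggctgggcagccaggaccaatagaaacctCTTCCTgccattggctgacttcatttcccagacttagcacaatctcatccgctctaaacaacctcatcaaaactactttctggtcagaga

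Kdr held 1 CCGGAA, Flt1 held 2 AGGAAG, and Etv2 and this Erg entry held 1 AGGAAG each. Of all 32851 such stretches 45.2% held either motif, so a match is common and says nothing of binding. Tie1 held 2 AGGAAG, while Tek, Cldn5 and the other 2 Erg entries held neither. The SOX letters AACAAT, found in 10.7% of all stretches, were in those of Tek and of the Erg entry shown, and the FOX letters GTAAACA, found in 3.65%, were in none of the 9. No motifs overlapped. Sequences of Cdh5, Pecam1 and Sox18 were not used here.

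Across the 10 genes, Erg was the only gene that passed the test between groups in the fit to all features, and it fell in hydroxyurea embryos. With limma's moderated test and Benjamini-Hochberg adjustment over all features, 1 of 10 was lower (10%) and 0 were higher, where 6.15% of all features passed in either direction (2.76% higher, 3.39% lower). At an unadjusted p of 0.05, 5 of 10 passed (Erg, Sox18, Kdr, Cdh5 and Etv2) beside 24.8% of all features. The 4 arrays of each group did not overlap for 3 of the 10 genes, of which Kdr and Erg were lower and Sox18 higher, beside 15.5% of all features (7.85% higher, 7.63% lower). In the fit over every probe, 1 of the 12 probes passed, beside 6.82% of all probes. The median log2 difference of the 10 genes was -0.05, beside 0.04 for all features and 0.10 for named genes, with 4 genes above 0 and 6 below. The genes thus lay on both sides of 0, and the log2 differences ran from -1.16 (Kdr) to 0.80 (Etv2).

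**Figure D1:**
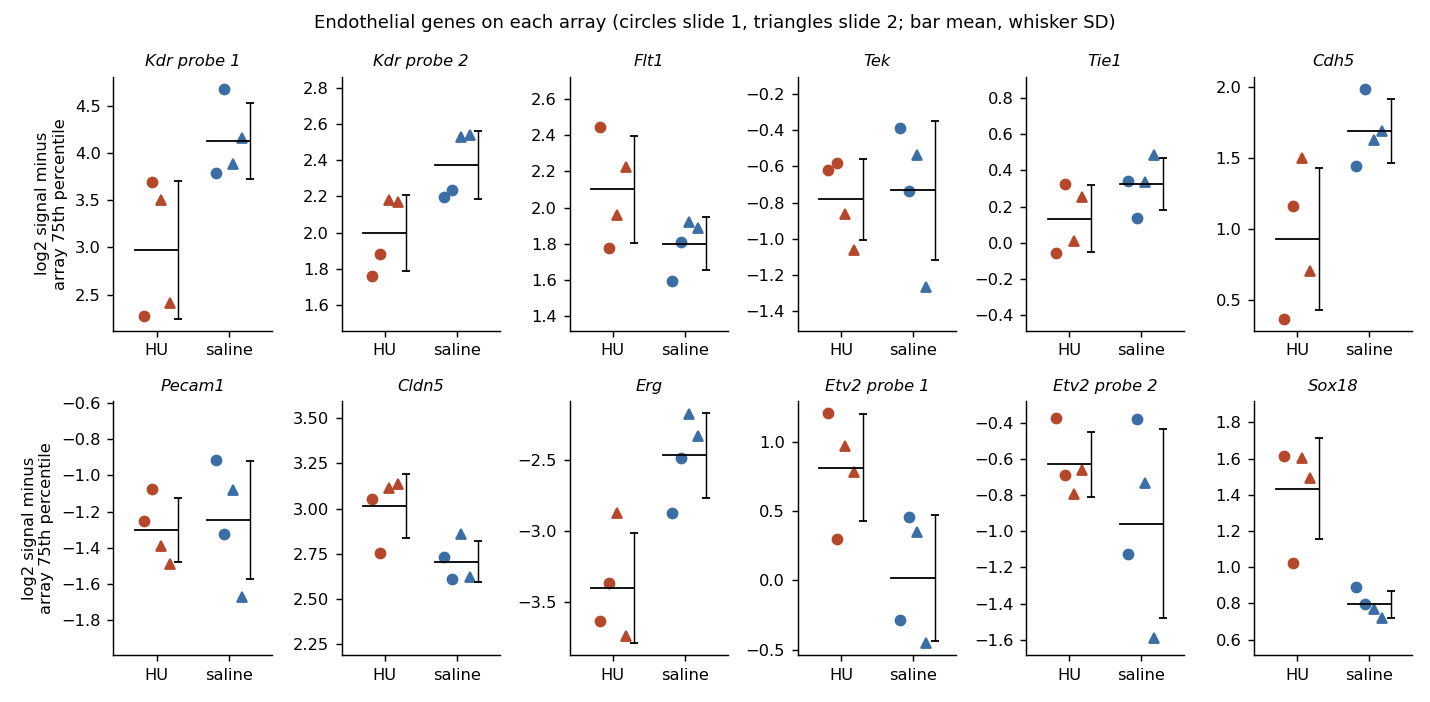
Log2 signal minus the array's 75th percentile (y axis, its range differs between panels) for the 12 probes of the 10 genes that passed the filter, on each of 4 hydroxyurea (HU) and 4 saline arrays. Circles are slide 1 and triangles slide 2, bars are group means and whiskers SDs. Kdr (both probes), Erg and Sox18 are the genes whose groups do not overlap.

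Among the receptor genes, Kdr gave lower values in every hydroxyurea embryo sample, but the difference did not pass the test. The brighter of its 2 probes read 2.28, 3.69, 3.50 and 2.41 on the hydroxyurea arrays, against 3.78, 4.68, 3.88 and 4.16 on the saline arrays. The hydroxyurea arrays formed a low pair (1 and 4) and a higher pair (2 and 3) that came close to the lowest saline array. The log2 difference was -1.16 ± 0.35 (SE, n = 4 per group, limma adjusted p = 0.0872), with a 95% interval of -1.95 to -0.36. The other Kdr probe read 1.76, 1.88, 2.18 and 2.17 on the hydroxyurea arrays, against 2.19, 2.23, 2.53 and 2.54 on the saline arrays. Here too the groups did not overlap, though hydroxyurea arrays 3 and 4 lay just under the lowest saline value. Its log2 difference was -0.38 ± 0.17 (SE, n = 4 per group, limma adjusted p = 0.203 in the fit over every probe). Within an array, the log2 ratio of the brighter to the dimmer Kdr probe averaged 0.97 on hydroxyurea arrays and 1.75 on saline arrays. This gap of -0.78 did not pass (two-sided exact permutation test, p = 0.171, adjusted p = 0.171 over the 2 genes with a usable pair of probes, smallest possible p = 0.0286). With 4 arrays per group, that does not show that the 2 probes agree. On slide 1 the Kdr differences were -1.25 and -0.39, and on slide 2 they were -1.07 and -0.36. The brighter probe passed without the array hydroxyurea 2 (-1.40, limma adjusted p = 0.0329) and with another background correction, normexp (-1.10, limma adjusted p = 0.04). Hydroxyurea 2 lay nearest to saline for this probe, so leaving it out widens the gap by construction. The probe did not pass with quantile normalization (limma adjusted p = 0.103), a slide block (0.115) or dim probes kept (0.187). With 1 array left out, its limma adjusted p reached 0.226.

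Flt1, whose product competes with VEGFR2 for VEGF-A, pointed the other way with a smaller difference. It read 2.45, 1.77, 1.96 and 2.22 on the hydroxyurea arrays, against 1.59, 1.81, 1.92 and 1.89 on the saline arrays. The groups overlapped, with hydroxyurea 2 below 3 of the saline arrays. Its log2 difference was 0.30 ± 0.18 (SE, n = 4 per group, limma adjusted p = 0.332), and its interval of -0.10 to 0.70 includes 0.

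Tek and Tie1, the angiopoietin receptor gene and that of its partner, stayed near their saline levels. Tek read -0.62, -0.58, -0.86 and -1.06 on the hydroxyurea arrays, against -0.39, -0.74, -0.54 and -1.27 on the saline arrays. The saline arrays enclosed all 4 hydroxyurea values. Tek thus differed by -0.05 ± 0.21 on the log2 scale (SE, n = 4 per group, limma adjusted p = 0.915), with an interval of -0.53 to 0.43, so a change within these bounds is not excluded. Tie1 read -0.06, 0.33, 0.01 and 0.25 on the hydroxyurea arrays, against 0.34, 0.14, 0.34 and 0.49 on the saline arrays. Hydroxyurea 1 and 3 lay below every saline array and the other pair among them. Its log2 difference was -0.19 ± 0.15 (SE, n = 4 per group, limma adjusted p = 0.473), with an interval of -0.53 to 0.15.

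Among the junction genes, Cdh5 gave lower values without passing the test. It encodes VE-cadherin, the adhesion protein of endothelial adherens junctions. Cdh5 read 0.37, 1.16, 1.50 and 0.70 on the hydroxyurea arrays, against 1.44, 1.99, 1.63 and 1.69 on the saline arrays. Hydroxyurea 3 alone lay above a saline array (saline 1), and hydroxyurea 1 and 4 were again the low pair. Hydroxyurea minus saline came to -0.76 ± 0.25 on the log2 scale (SE, n = 4 per group, limma adjusted p = 0.107), with an interval of -1.32 to -0.19. It was -0.95 on slide 1 and -0.56 on slide 2.

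Cldn5 and Pecam1 did not share this direction. Cldn5, which encodes the main claudin of endothelial tight junctions, read 3.05, 2.76, 3.11 and 3.14 on the hydroxyurea arrays, against 2.73, 2.61, 2.86 and 2.62 on the saline arrays. Only hydroxyurea 2 fell among the saline arrays. On the log2 scale Cldn5 differed by 0.31 ± 0.15 (SE, n = 4 per group, limma adjusted p = 0.228), with an interval of -0.02 to 0.64. Pecam1, which encodes the adhesion molecule CD31 of endothelium, platelets and leukocytes, read -1.25, -1.08, -1.39 and -1.49 on the hydroxyurea arrays, against -0.91, -1.32, -1.08 and -1.67 on the saline arrays. As for Tek, the saline arrays enclosed the hydroxyurea values. Its log2 difference was -0.05 ± 0.19 (SE, n = 4 per group, limma adjusted p = 0.891), with an interval of -0.49 to 0.38.

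Among the factor genes, Erg fell by 0.94 on the log2 scale, a 1.92-fold lower level in hydroxyurea embryos. Erg read -3.64, -3.36, -2.88 and -3.75 on the hydroxyurea arrays, against -2.88, -2.48, -2.18 and -2.33 on the saline arrays. The groups did not overlap, but hydroxyurea 3 and saline 1 were nearly level. The log2 difference was -0.94 ± 0.23 (SE, n = 4 per group, limma adjusted p = 0.0449), with an interval of -1.46 to -0.42, and it was -0.82 on slide 1 and -1.06 on slide 2. The probe was dim but well above background on all 8 arrays, while a second Erg probe was not well above background on any array and gives no difference. The adjusted p lay close to the threshold and the call was lost without hydroxyurea 1 (adjusted p = 0.127), hydroxyurea 4 (0.136), saline 2 (0.1), saline 3 (0.117) or saline 4 (0.0968) in the limma fit. It was also lost with the slide as a block (limma adjusted p = 0.0516) and with normexp, where the log2 difference was -0.40 (limma adjusted p = 0.247).

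Sox18 and Etv2 gave higher values in hydroxyurea embryos and did not pass. Sox18, a SOX factor gene of arterial and lymphatic development, read 1.62, 1.03, 1.60 and 1.49 on the hydroxyurea arrays, against 0.89, 0.80, 0.77 and 0.72 on the saline arrays. Every hydroxyurea array lay above every saline array, with hydroxyurea 2 the nearest to them. The log2 difference was 0.64 ± 0.17 (SE, n = 4 per group, limma adjusted p = 0.0544), with an interval of 0.27 to 1.01. It passed without hydroxyurea 2 (0.78, limma adjusted p = 0.00813), with normexp (0.0246) and with quantile normalization (0.0306). Leaving out hydroxyurea 2, the nearest to saline, widens the gap by construction. Sox18 did not pass with median centring (limma adjusted p = 0.0968), a slide block (0.0789) or dim probes kept (0.148). With 1 array left out, its limma adjusted p reached 0.155. Etv2 read 1.21, 0.30, 0.97 and 0.78 on the hydroxyurea arrays by its brighter probe, against -0.29, 0.46, 0.35 and -0.46 on the saline arrays. Hydroxyurea 2 lay below 2 of the saline arrays and the others above all of them. The log2 difference was 0.80 ± 0.27 (SE, n = 4 per group, limma adjusted p = 0.11), with an interval of 0.20 to 1.40, and without hydroxyurea 2 it passed (0.97, limma adjusted p = 0.0413). Hydroxyurea 2 was the lowest hydroxyurea array for this probe, so leaving it out widens the gap by construction. Etv2 passed in no other alternative run. The dimmer Etv2 probe gave 0.33 ± 0.25 (SE, n = 4 per group, limma adjusted p = 0.464 in the fit over every probe), with overlapping groups.

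**Figure D2:**
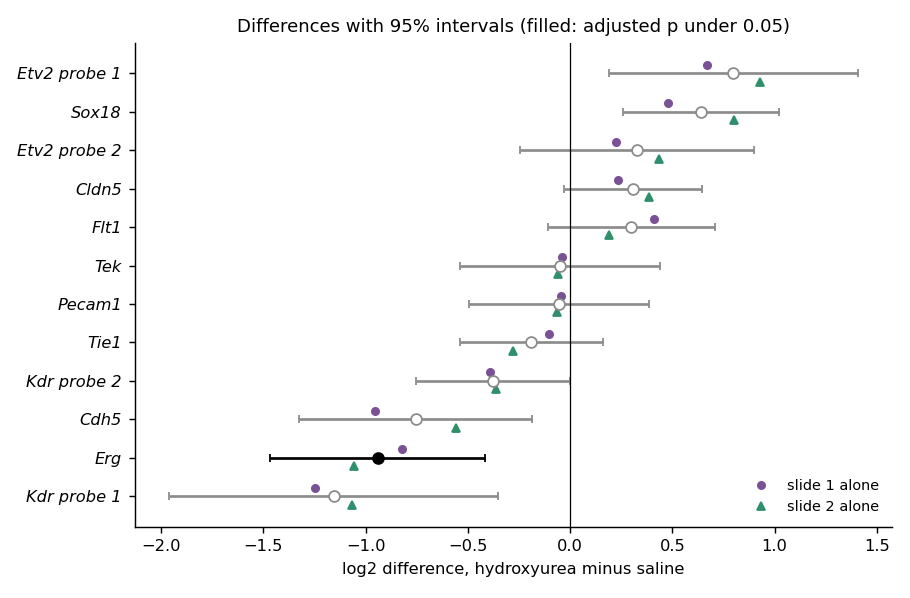
Log2 difference between hydroxyurea and saline arrays (x axis) for each probe (y axis), from the fit over every probe, with 95% intervals. Coloured marks are the differences within slide 1 and slide 2. Erg, filled, passed an adjusted p of 0.05, and for each of the 12 probes the 2 slides gave the same sign.

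Over the 8 arrays Tek varied together with Pecam1, and Cdh5 with Erg and with the brighter Kdr probe. Among 66 pairs of the 12 probes, 3 pairs passed an exact permutation test of Pearson's r after adjustment over the pairs. Tek and Pecam1 had r = 0.97 (exact p = 4.96e-05, adjusted p = 0.00327) and Spearman's rho = 0.98 (exact p = 0.000397, adjusted p = 0.0262), with r = 0.97 without the 2 arrays farthest from the Tek median. Kdr (brighter probe) and Cdh5 had r = 0.96 (exact p = 0.000521, adjusted p = 0.0172) and rho = 0.93 (exact p = 0.00223, adjusted p = 0.0491), with r = 0.84 without the 2 arrays farthest from the Kdr median. By the other Kdr probe the relation with Cdh5 did not pass (r = 0.71, exact p = 0.0455, adjusted p = 0.137), and r was 0.36 once group means were taken off. The 2 Kdr probes had r = 0.58 with each other (exact p = 0.13, adjusted p = 0.265), and r = 0.05 without the group means. Cdh5 and Erg had r = 0.90 (exact p = 0.00198, adjusted p = 0.0437) and rho = 0.86 (exact p = 0.0107, adjusted p = 0.0589), with r = 0.78 without the 2 arrays farthest from the Cdh5 median. After each group's mean was taken off, r was 0.97, 0.91 and 0.74 for the 3 pairs that passed, in the same order. The permutations ran over all 8 arrays without regard to group. A group difference shared by 2 genes, as in the 2 pairs with Cdh5, thus counts in these p-values. The r without group means was not tested. Probes on an array share its RNA and its scaling, and with 4 arrays a slide holds too few for values of its own. Kdr and Flt1, receptors of the same ligand, had r = -0.81 by the brighter Kdr probe (exact p = 0.0154, adjusted p = 0.0847) and rho = -0.64 (exact p = 0.0962, adjusted p = 0.244). This relation rested on the 2 arrays farthest from the Kdr median, without which r was -0.04. The same Kdr probe had r = -0.84 with Cldn5 and -0.83 with Sox18, and neither passed (exact p = 0.00585 and 0.00541, adjusted p = 0.0624 for both). Tie1 and the brighter Etv2 probe passed by rho (-0.95, exact p = 0.00114, adjusted p = 0.0376) but not by r (-0.89, exact p = 0.00454, adjusted p = 0.0624). By the dimmer Etv2 probe rho was -0.76 and did not pass (exact p = 0.0368, adjusted p = 0.143).

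**Figure D3:**
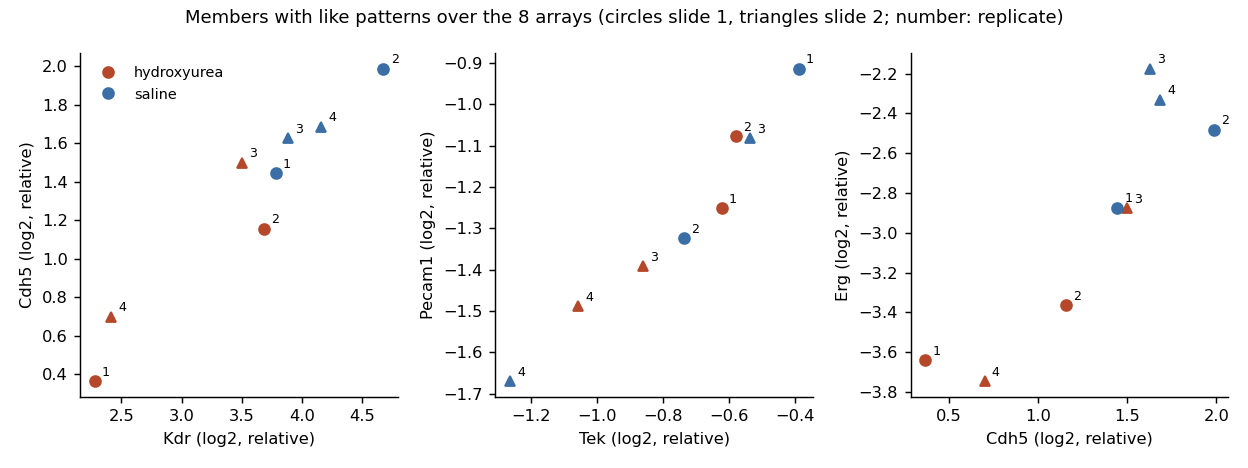
Log2 signal relative to the array's 75th percentile for the 3 pairs that passed, with 1 point per array, coloured by group, circles for slide 1 and triangles for slide 2. Hydroxyurea 1 and 4 lie apart at the low end for Kdr and Cdh5, while for Tek and Pecam1 hydroxyurea and saline arrays mix along 1 line.

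The mean of the 10 centred profiles ran from -0.18 to 0.15 over the 8 arrays. Of the 14657 named genes tested, those outside the 10 with a value on all 8 arrays were searched for the genes most like this mean. The highest Pearson's r were those of Srgap2, Gata5, Nxnl1, Galns and AB124611, between 0.98 and 0.99. As the top of so wide a search on 8 arrays, these genes are a description, and their r was not tested. Their own log2 differences lay between -0.72 and -0.50 and none passed (limma adjusted p of 0.217 to 0.392). Of these, Gata5 encodes a GATA factor of early heart and endoderm.

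Markers of other cells differed between arrays of the same group, and this touches the low pair of hydroxyurea arrays. Prl8a2, a prolactin-family gene of the decidua, read 2.40 on hydroxyurea 2 and 6.03 on hydroxyurea 3, and from -7.51 to -2.03 on the other 6 arrays, of which 3 were not well above background. Prl3d1, a placental lactogen gene of trophoblast giant cells, read 2.40 and 1.43 on the same pair and from -3.91 to -2.39 elsewhere. The other measured markers of this list, Dcn and Prl3b1, did not set the pair apart from all other arrays. Dcn was highest on hydroxyurea 4 (1.78), and hydroxyurea 3 lay below saline 1 and 4. Prl3b1 was higher on hydroxyurea 2 and 3 than on hydroxyurea 1 and 4, but within the saline range (-0.18 to 0.36). On hydroxyurea 3 Prl8a2 was the brightest of the 4 and so the heaviest in the summed signal given below. These arrays, hydroxyurea 2 and 3, are those with the higher values in the hydroxyurea group for Cdh5 and for the brighter Kdr probe, while by the other Kdr probe hydroxyurea 3 and 4 were the higher pair. The whole list of 6 placental and decidual markers, 4 of them measured and 3 well above background on all arrays, summed to 2.68 to 71.5 in hydroxyurea samples and 3.30 to 3.68 in saline samples (linear signal relative to the 75th percentile). Its part in the results was not tested. Without hydroxyurea 2 and 3, an alternative chosen after the data were seen, 4 of 10 genes passed in the limma fit of 2 against 4 arrays: Kdr (-1.78, adjusted p = 0.00901), Cdh5 (-1.15, adjusted p = 0.0142) and Erg (-1.23, adjusted p = 0.015) were lower and Sox18 was higher (0.76, adjusted p = 0.0185). That fit called 3787 of all features, against 1426 with every array. Hydroxyurea 2 and 3 were the hydroxyurea arrays nearest to saline for Kdr, Cdh5 and Erg, and hydroxyurea 2 was the nearest for Sox18. Dropping them thus widens the gaps of these 4 genes by construction.

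All 17 endothelial markers (the 10 genes with Emcn, Esam, Eng, Cd34, Egfl7, Ecscr and Robo4) were well above background on all 8 arrays. Their summed signal was 85.3 to 102.1 in hydroxyurea samples and 80.3 to 98.3 in saline samples. Bright genes weigh most in such a sum. On saline arrays Egfl7 averaged 4.75, Cd34 4.19 and Kdr 4.13, against -1.25 for Pecam1 and -2.47 for Erg. Primitive erythroid markers (8 of 8 well above background) summed to 1438 to 2450 in hydroxyurea and 1467 to 2253 in saline samples. Markers of blood progenitors and macrophages, cells that can also express Pecam1 or Erg, summed to 12.4 to 25.4 in hydroxyurea and 10.8 to 13.0 in saline samples, with 7 of 10 measured. Of the 7 measured, 6 differences lay above 0 and 1 below, with a median of 0.50. Gfi1b, a factor gene of erythroid and megakaryocyte precursors, rose by 1.19 (limma adjusted p = 0.00568) and was the only 1 of the 7 that passed. Pf4, on average the brightest of the list and so the heaviest in its sum, stood at 0.91 (limma adjusted p = 0.151). The 1 below 0 was Csf1r, the macrophage growth factor receptor gene, at -1.51 (limma adjusted p = 0.0923). Csf1r read -1.08, 0.76, 0.48 and -1.05 on the hydroxyurea arrays, against 1.46, 0.75, 2.04 and 0.90 on the saline arrays. Hydroxyurea 1 and 4 were the low pair, as for Cdh5 and the brighter Kdr probe. Yolk sac endoderm markers ranged from 16.1 to 87.7 in hydroxyurea and from 19.1 to 255.1 in saline samples, with saline 2 the highest. All 8 of their differences lay below 0, with a median of -0.90, and 0 passed in the limma fit. Cardiomyocyte sums were 352 to 476 in hydroxyurea and 287 to 378 in saline samples. Neural progenitor sums were 41.5 to 58.4 in hydroxyurea and 53.2 to 67.6 in saline samples. All 6 neural differences lay below 0, with a median of -0.38, and 0 passed in the limma fit. Mesenchyme sums were 25.0 to 37.5 in hydroxyurea and 32.4 to 37.2 in saline samples, and mural cell sums 58.5 to 82.8 in hydroxyurea and 62.7 to 94.8 in saline samples. Single members passed as well, 1 of 5 mural and 1 of 8 cardiomyocyte markers, beside 6.15% of all features. The pericyte gene Rgs5 rose by 0.96 (limma adjusted p = 0.0163), while of the 5 mural differences 3 lay above 0 and 2 below. Rgs5 averaged -3.21 on saline arrays, against 5.21 for Acta2 and 5.11 for Tagln, so it weighs little in the mural sums. The cardiac myosin gene Myh7 rose by 0.63 (limma adjusted p = 0.0317), with 7 of the 8 cardiomyocyte differences above 0 and 1 below. Whether these sums bear on the differences above was not tested. Between 48.7% (hydroxyurea 3) and 62.3% (saline 1) of spots were well above background.

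Ligands and regulators of the same receptors were read from lists. Of all features, 6.15% passed in the limma fit and 24.8% had an unadjusted p under 0.05. For VEGF ligands and co-receptors, 0 of 8 measured genes passed in the limma fit and 2 had an unadjusted p under 0.05, with a median log2 difference of 0.06. Vegfa stood at 0.03 ± 0.17 (SE, n = 4 per group, limma adjusted p = 0.934), and its other probe gave -0.11. Flt4, the VEGFR3 gene, stood at -0.47 ± 0.20, its ligand gene Vegfc at 0.40 ± 0.18 and the co-receptor gene Nrp1 at 0.15 ± 0.15, and their groups overlapped.

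On the angiopoietin side, 2 of 7 measured genes rose and 0 fell, where 2.76% of all features rose and 3.39% fell. All 7 differences lay above 0, and the median was 0.53. Over all features 12538 of 23172 lay above 0, and over named genes 9015 of 14657. With the mean of a gene's probes Ptprb stood at -0.24, so 1 of the 7 then lay below 0. Angpt2, the context-dependent antagonist of TIE2 made by endothelium, read -0.44, -0.67, -0.40 and -0.15 on the hydroxyurea arrays, against -1.19, -0.95, -0.93 and -1.31 on the saline arrays. The groups did not overlap, and the log2 difference was 0.68 ± 0.17 (SE, n = 4 per group, limma adjusted p = 0.0439). Angpt1, the agonist of TIE2, read 1.02, 0.46, 0.87 and 1.005 on the hydroxyurea arrays, against 0.19, 0.47, 0.34 and 0.27 on the saline arrays. Hydroxyurea 2 was level with saline 2 and the others lay above, for a difference of 0.52 ± 0.17 that did not pass (limma adjusted p = 0.0958). Tnip2, which encodes an inhibitor of NF-kappaB signalling that binds TIE2, rose by 0.70 ± 0.15 (limma adjusted p = 0.031), while by a second probe the difference was 0.72 (0.105, not passed). Ptprb, the gene of the phosphatase VE-PTP that acts on TIE2, stood at 0.09 ± 0.18 and its other probe at -0.57. The calls of Angpt2 and Tnip2 held without hydroxyurea 2 and were lost without any other array. With the slide as a block Angpt2 did not pass (limma adjusted p = 0.0628), nor did either gene with median centring (0.0822 for Angpt2, 0.0667 for Tnip2) or when dim probes were kept (0.123 for Angpt2, 0.0974 for Tnip2), and Tnip2 did not with normexp (0.48, limma adjusted p = 0.0805).

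Among 23 other endothelial transcription factor genes, 1 rose and 0 fell, with a median of 0.22, where 2.76% of all features rose and 3.39% fell. Klf2, a zinc finger factor gene induced by blood flow, rose by 1.20 ± 0.18 (SE, n = 4 per group, limma adjusted p = 0.00647). It read 2.25, 1.60, 2.22 and 1.91 on the hydroxyurea arrays, against 0.78, 0.95, 0.68 and 0.75 on the saline arrays. The groups lay well apart, and the call held when any 1 of the 8 arrays was left out. Chosen after its values were seen, Foxo1, a forkhead factor gene, stood at 0.43 by its brightest probe (limma adjusted p = 0.109) and at 0.70 by another, which passed in the fit over every probe (limma adjusted p = 0.037). With the mean of a gene's probes, 2 of the 23 passed. Of 18 measured ETS factor genes other than Erg and Etv2, 0 passed in the limma fit, with a median of 0.08. An unadjusted p under 0.05 was found for 2 of them, beside 24.8% of all features. Elf1 stood at 0.74 ± 0.19 (limma adjusted p = 0.0531) with a second probe at -0.12, and Elf5, an ETS factor gene of trophoblast and epithelia that was above background on 3 arrays of each group, stood at 1.25 ± 0.55 (limma adjusted p = 0.196). Chosen after its values were seen, Elk4 gave -0.16 by its brightest probe (limma adjusted p = 0.545) and -1.59 by a dimmer one, which passed in the fit over every probe (limma adjusted p = 0.0288).

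Of 38 measured surface and junction genes of endothelium, 0 passed in the limma fit, beside 6.15% of all features. An unadjusted p under 0.05 was found for 7 of them, beside 24.8% of all features. The median was 0.23 and 27 of 38 lay above 0, beside the 9015 of 14657 named genes. Mmrn2, which encodes an endothelial matrix glycoprotein, stood at 0.67 ± 0.17 (SE, n = 4 per group, limma adjusted p = 0.0532). Plxnd1, the gene of a semaphorin receptor, stood at 0.71 ± 0.18 (limma adjusted p = 0.055), with 0.25 by a second probe. For Mmrn2 and for this Plxnd1 probe the groups did not overlap. Where 2.76% of all features rose and 3.39% fell, 1 of 9 Notch and ephrin genes of arteries and veins rose and 0 fell, with a median of 0.12. It was the Notch ligand gene Jag2, at 0.72 ± 0.17 (limma adjusted p = 0.0385), which passed without hydroxyurea 2 or saline 1 and in no other fit that left out 1 array. A slide block ended the call of Jag2 (limma adjusted p = 0.0583), and 0 of the 9 then passed.

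Junction genes outside the endothelial set gave no calls, where 6.15% of all features passed and 24.8% had an unadjusted p under 0.05. Of 10 cytoplasmic junction partners 0 passed in the limma fit (2 with an unadjusted p under 0.05), with a median of 0.15. The scaffold gene Tjp1 (ZO-1) stood at 0.55 ± 0.22 (SE, n = 4 per group, limma adjusted p = 0.171). Of 15 measured claudin genes other than Cldn5, 0 passed (2 with an unadjusted p under 0.05), with a median of 0.05. The claudin genes Cldn10 and Cldn23 stood at 0.65 ± 0.19 and -0.65 ± 0.24 (limma adjusted p = 0.0745 and 0.139).

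**Figure D4:**
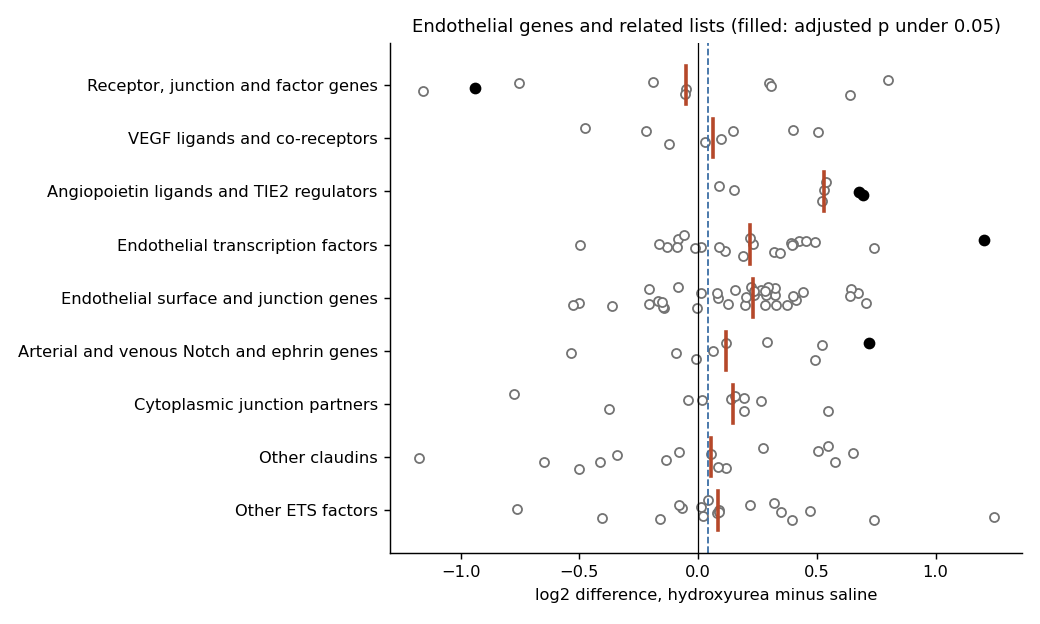
Log2 difference between hydroxyurea and saline arrays (x axis) for each measured gene (points) of the 10 receptor, junction and factor genes and of 8 related lists (y axis). Filled points passed an adjusted p of 0.05, vertical bars are list medians and the dashed line is the median of all features, 0.04. Erg is the filled point below 0, and those above 0 are Angpt2, Tnip2, Klf2 and Jag2.

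The authors' deposited table of changed genes, selected by criteria not stated here, lists 1346 probes, and 0 of the 13 probes of the 10 genes are among them. Of the 1426 features that passed here, 912 have their probe in the authors' deposited table.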

How the data were processed

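The deposited scanner files hold Cy3 intensity values from Agilent Feature Extraction 11.5.1.1, per the submitters' processing notes, with the authors' processed signal background-subtracted and not scaled between arrays. The authors' deposited table of changed genes gives log2 values centred per probe, with the normalization not stated, and served only for an overlap of probe names. Flags for outliers, saturation and signal well above background came with the deposited files (other per-spot columns were not used).

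Spots flagged as outliers (151 to 315 per array) were dropped. Saturation was flagged on 0 spots. The log2 processed signal was averaged over a probe's spots, and the array's 75th percentile (249 to 516 in intensity) was subtracted. Probes well above background on at least 4 of 8 arrays were kept (30758 of 55681). RefSeq accessions gave 26582 probes a symbol through a table of GRCm38.p6, and the probe with the highest mean stood for its gene. Values of a second probe come from the fit over all 30758 probes.

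The group difference came from limma (version 3.58.1, under R 4.3.3) by lmFit and eBayes with no covariate, with two-sided p-values adjusted by Benjamini and Hochberg over 23172 features and called under 0.05. The steps were tested on simulated data. Alternatives changed the background correction, scaling, filter, choice of probe, slide and arrays. The plan for normexp named a mean signal column, and the files' median signal with an offset of 50 was used instead. Genes named beyond the 10 were Vegfa, Flt4, Nrp1, Angpt1, Angpt2 and Ptprb, and from each list the 3 called genes with the lowest p or, with none called, the 2 lowest. A gene that this rule names is not reported here. The genes and lists were chosen with earlier results of these data known. The number of arrays limits the precision. Slide 1 was scanned at 3 and slide 2 at 5 micrometres.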

Additional observations from a re-analysis of the deposited data

How the results depend on the processing

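With 4 arrays per group and most differences under 1 on the log2 scale, calls near the threshold moved with the processing. Of the 10 genes, 1 passed in the main comparison. The count was 2 with normexp, 2 with quantile normalization and 2 when all 8 arrays had to be well above background, each time with 1 higher and 1 lower. It was 0 with median centring, 0 with no filter on dim probes, 0 with the slide as a block, 0 on slide 1 alone and 0 on slide 2 alone, and 4 without hydroxyurea 2 and 3. Leaving out each array in turn gave 0 to 4, with 4 without hydroxyurea 2, and 0 without hydroxyurea 1, hydroxyurea 4, saline 2, saline 3 or saline 4. Over all features the count of 1426 became 611 with no filter on dim probes, 56 on slide 1 alone, 3 on slide 2 alone and 3787 without hydroxyurea 2 and 3, and ran from 523 to 3736 when each array was left out. The median of the 10 genes stayed within the spread between replicates under the 19 alternatives, from -0.17 to 0.06 when each array was left out and 0.07 with median centring, which moved the median of all features from 0.04 to 0.16.

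Kdr, Flt1, Tie1, Cdh5, Cldn5, Erg, Etv2 and Sox18 kept their sign under every alternative run. Tek and Pecam1, both near 0, turned to 0.0689 and 0.0636 with median centring. With each array left out Tek ran from -0.23 to 0.065 and Pecam1 from -0.20 to 0.056. Vegfa turned to -0.0116 with quantile normalization, -0.0376 with the mean of its probes, -0.00452 on slide 2 and -0.105 by its other probe, and ran from -0.034 to 0.12 with each array left out. Ptprb turned to -0.243 with the mean of its probes and -0.574 by its other probe, and Elf1 to -0.122 by its other probe. The cause of these changes was not tested. No paired analysis was possible because the labels give no replicate numbers that pair samples across groups.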
